A study of Mus musculus with 38 samples.

Results

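A set of 10 chemokine ligand genes was followed in mouse CD8 T cell clones before and after stimulation through the T cell receptor complex. The genes were Ccl1, Ccl3, Ccl4, Ccl5, Ccl6, Ccl9, Ccl20, Ccl22, Xcl1 and Cxcl10, found by gene symbol among the 23410 named probe sets of the arrays. The probe sets that name 1 gene stand for 19938 distinct genes. Each of the 10 genes had exactly 1 probe set that names no other gene, so 10 probe sets are described. The rule that selects them uses gene symbols and no measured value. The list of symbols was, however, chosen with earlier results of these data known, so the shares called among the 10 genes are descriptions. No filter on low values was applied in the main test, and 9 of the 10 reached a group mean of at least 7 on the log2 scale in some group. Ccl22 did not.

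Messenger RNA levels came from 38 Affymetrix arrays with 1 RNA sample on each, deposited as log2 probe set values. The samples came from 5 clones, each in an activated and a dormant state. Activated cells had spent 14 h on anti-CD3 antibody (145-2c11, 0.5 ug/ml in PBS) that had been adsorbed to the culture surface overnight; dormant cells had not been stimulated. All cultures were grown in RPMI 1640 medium with 10% fetal bovine serum, glutamax and 2-mercaptoethanol. The clones sAg1 and sAg3 are labelled CD8IL13+ and are called CD8γ13 in the study's design text. Clones 8uvmo-2 and 8uvmo-3 are labelled CD8IL13- and called Tc1, and CD8bm1 is an alloreactive conventional CD8 clone. The 10 groups held 4 arrays each, except that the dormant groups of sAg1 and sAg3 held 3 each. Every group is 1 clone, so a phenotype is represented by 2 clones or, for CD8bm1, by 1. The labels used here do not give the mouse strain and do not say whether arrays of a group came from separate cultures, so the spread between them may be technical.

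Chemokines are small secreted proteins that direct cell migration through G protein-coupled receptors on the responding cells. Activated CD8 T cells are known for releasing Ccl3, Ccl4, Ccl5 and Xcl1, which attract monocytes, other T cells and, through Xcr1, cross-presenting dendritic cells. Ccl1 acts through Ccr8, Ccl20 through Ccr6, Ccl22 through Ccr4 and Cxcl10 through Cxcr3. Ccl6 and Ccl9 are rodent chemokines of the Ccr1 ligand group that are best known from macrophages and other myeloid cells. On mouse chromosome 11 lie 6 of the genes, Ccl1, Ccl3, Ccl4, Ccl5, Ccl6 and Ccl9. Ccl20 and Xcl1 lie on chromosome 1, Cxcl10 on chromosome 5 and Ccl22 on chromosome 8. The annotated spans of Ccl4 and Ccl3 overlap, but each has its own probe set.

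The proximal promoters of Ccl1, Ccl3, Xcl1 and Ccl9 are shown because these genes moved together across the groups, and that of Cxcl10 because it stayed low in most groups. Each sequence is the 250 bases before the RefSeq transcription start in mouse assembly GRCm38.p6, written 5′ to 3′ along the gene, and all 5 genes lie on the minus strand. Capitals mark matches on either strand to any of 6 motifs: the NFAT core GGAAA, AP-1 TGANTCA, kappaB (GGGANN followed directly by TNCC), T-box GGTGTGA, EGR GCGTGGGNG and the interferon response element (TTTCNN followed directly by TTTC).
Ccl1: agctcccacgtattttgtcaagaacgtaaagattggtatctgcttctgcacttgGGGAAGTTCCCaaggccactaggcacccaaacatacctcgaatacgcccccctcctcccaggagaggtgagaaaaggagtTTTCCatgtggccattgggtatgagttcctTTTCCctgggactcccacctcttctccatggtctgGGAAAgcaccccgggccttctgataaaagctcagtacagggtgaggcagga
Ccl3: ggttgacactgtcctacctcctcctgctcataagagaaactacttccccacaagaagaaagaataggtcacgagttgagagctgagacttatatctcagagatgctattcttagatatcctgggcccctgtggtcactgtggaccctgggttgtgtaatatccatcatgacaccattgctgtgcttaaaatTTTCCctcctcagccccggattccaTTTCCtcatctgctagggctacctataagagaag
Xcl1: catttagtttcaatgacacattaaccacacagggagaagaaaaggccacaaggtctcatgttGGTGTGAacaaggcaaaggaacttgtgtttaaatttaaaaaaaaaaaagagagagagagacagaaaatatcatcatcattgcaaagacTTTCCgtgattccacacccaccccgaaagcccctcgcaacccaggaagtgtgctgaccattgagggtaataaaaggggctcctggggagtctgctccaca
Ccl9: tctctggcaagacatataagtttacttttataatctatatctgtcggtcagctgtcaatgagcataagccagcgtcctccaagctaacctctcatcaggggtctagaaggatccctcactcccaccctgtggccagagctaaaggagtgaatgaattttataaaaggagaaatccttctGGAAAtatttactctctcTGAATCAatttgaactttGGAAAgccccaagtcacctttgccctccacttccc
Cxcl10: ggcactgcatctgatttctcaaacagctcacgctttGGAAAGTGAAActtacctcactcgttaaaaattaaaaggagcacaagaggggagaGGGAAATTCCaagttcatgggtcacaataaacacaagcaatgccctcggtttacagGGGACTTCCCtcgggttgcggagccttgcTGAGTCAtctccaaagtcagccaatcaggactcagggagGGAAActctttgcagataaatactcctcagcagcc

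The windows are chr11:82179813-82180062 for Ccl1, chr11:83649379-83649628 for Ccl3, chr1:164935523-164935772 for Xcl1, chr11:83578637-83578886 for Ccl9 and chr5:92348890-92349139 for Cxcl10. Ccl1 held 3 NFAT cores and 2 kappaB matches, which overlap each other on opposite strands. Ccl3 held 2 NFAT cores. Xcl1 held 1 NFAT core and 1 T-box match, and Ccl9 held 2 NFAT cores and 1 AP-1 match. Cxcl10 held 3 NFAT cores, 1 AP-1 match, 3 kappaB matches and 1 interferon response element; 2 of the kappaB matches are the same bases read on both strands, an NFAT core overlaps the response element and another overlaps a kappaB match. Ccl20 held 3 NFAT cores and 1 T-box match, and Ccl6 and Ccl22 held none of the 6 motifs. None of the 8 promoters matched the EGR motif. Over all 32851 promoters of the table, the same window held an NFAT core in 55.6%, AP-1 in 6.75%, kappaB in 3.33%, the T-box motif in 3.33%, the EGR motif in 1.65% and the interferon response element in 2.98%. These matches are descriptions of the letters in a short window. Ccl4 and Ccl5 are named without a promoter.

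The arrays carried the T cell and CD8 genes of their labels. Cd3e lay between 12.42 and 13.58, Cd8a between 11.04 and 12.90 and Cd8b1 between 11.45 and 12.99 on all 38 arrays. Il13 reached 8.52 to 10.32 in activated sAg1 and 12.72 to 12.87 in activated sAg3, against 7.62 to 7.92 in activated 8uvmo-2 and 6.44 to 6.68 in activated 8uvmo-3. Dormant sAg1 had Il13 at 6.06 to 6.46, which overlapped the 5.88 to 6.35 of dormant IL13-negative arrays, and dormant sAg3 had 10.25 to 10.34. Cd4 was also present in sAg3, at 10.50 to 10.68 activated and 10.30 to 10.67 dormant, against 5.98 to 8.32 on all arrays of the other clones. Array medians were 7.01 to 7.09 in activated and 6.58 to 6.70 in dormant samples, so each activation difference was taken relative to its array's median. The array maxima split by state as well, at 14.31 to 14.46 in activated and 14.53 to 14.76 in dormant samples. Whether both states were normalized together is not given, so a processing difference between them cannot be told apart from activation. Centring does not remove all of this shift, as given below for dim and bright probe sets. In the same arrays, 26 genes of unrelated organs lay below 7 in 81.35% of activated and 90.6% of dormant values, and a level below 7 is treated here as near background. Where 1 side lies below 7, the fold is given as a lower bound against 7. Arrays of the same group correlated at r = 0.9858 to 0.9981. The lowest values came from dormant 8uvmo-2, whose replicates 1 and 3 and replicates 2 and 4 form 2 sets.

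Stimulation raised most of these chemokine genes. A gene was called when its adjusted p was under 0.05 over all 23410 probe sets (limma with Benjamini-Hochberg adjustment) and its log2 difference was at least 1. In sAg1, 7 of the 10 were called higher, against 2.27% of all probe sets, and 1 was called lower, against 8.06%. In sAg3, 6 were called higher (background 0.645%). In 8uvmo-2, 7 were called higher (background 2.5%), and in 8uvmo-3, 6 were (background 1.96%). In CD8bm1, 4 were called higher (background 0.948%). The median difference of the 10 genes was 2.36 in sAg1, 1.60 in sAg3, 3.31 in 8uvmo-2 and 3.48 in 8uvmo-3, and 0.62 in CD8bm1, where that of all probe sets lay between -0.08 and -0.01. Ccl1, Ccl3, Ccl4 and Xcl1 were called higher in all 5 clones, Ccl9 in 4, Ccl5 in 3, Cxcl10 in 2 and Ccl20 in 1. In these bulk cultures, more RNA per cell and more cells making it cannot be told apart.

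**Figure D1:**
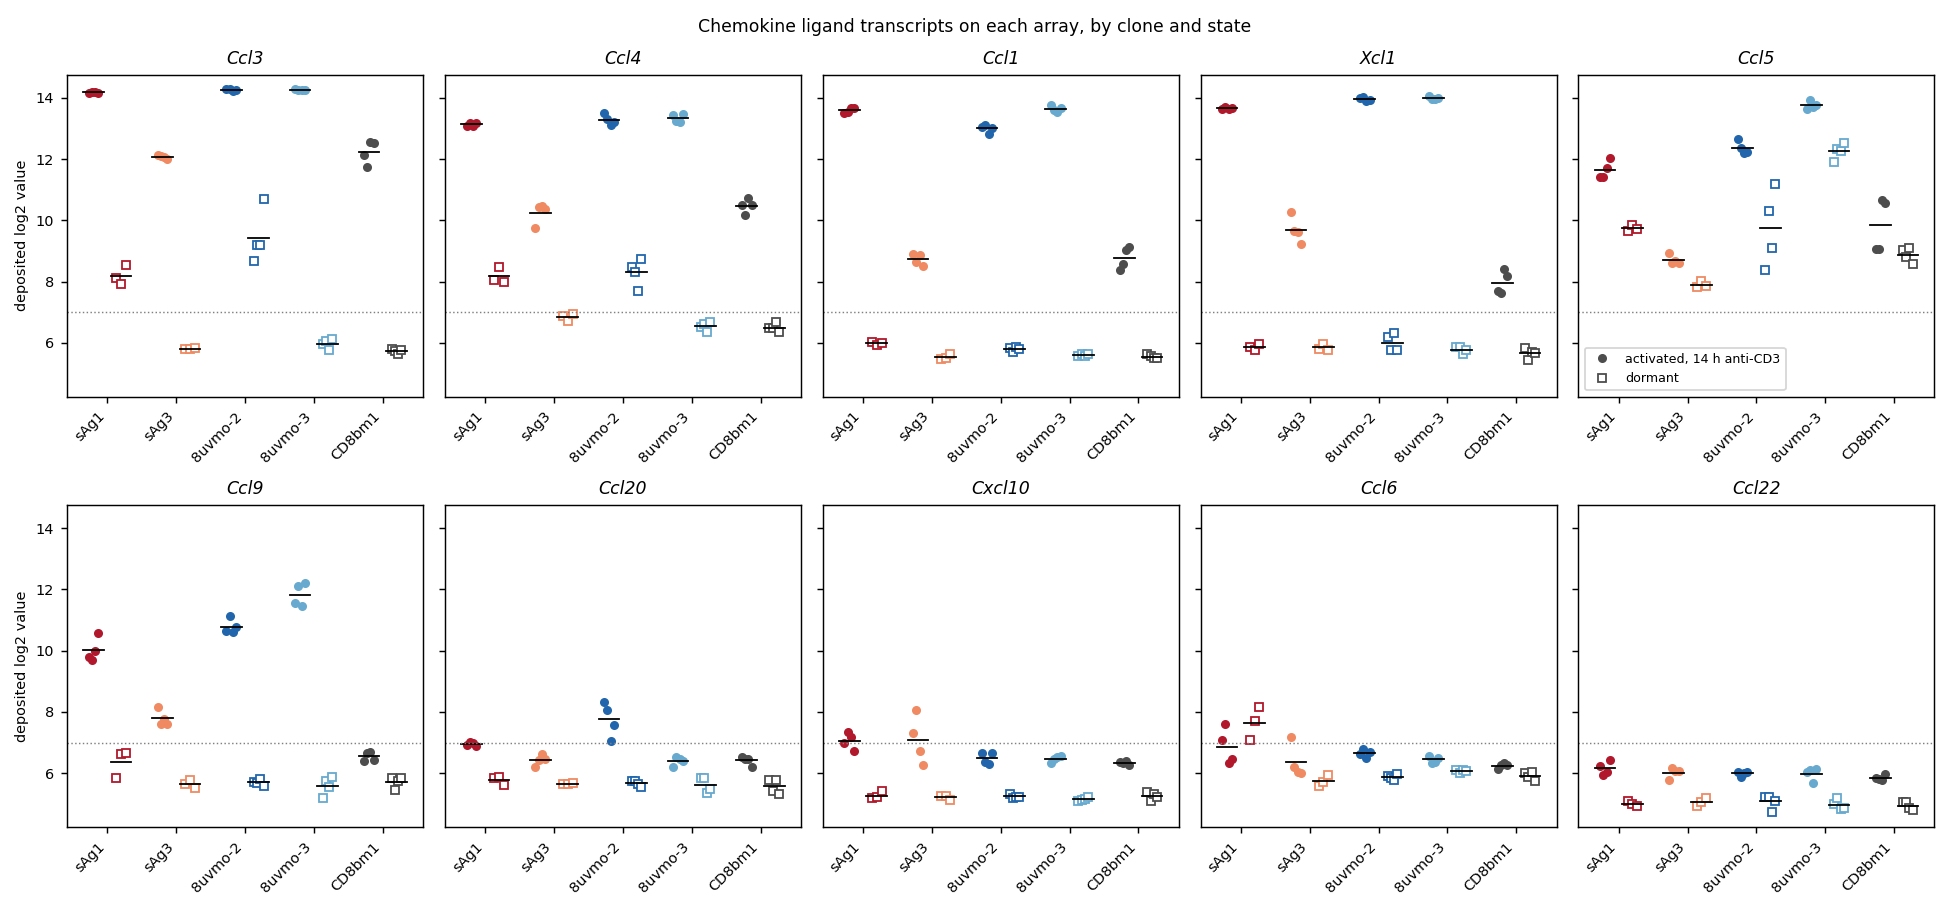
Deposited log2 level of each chemokine gene on each of the 38 arrays, by clone; filled circles are activated and open squares dormant arrays, black lines are group means, and the dotted line marks 7. Ccl1, Ccl3, Ccl4 and Xcl1 separate the states in every clone, Ccl5 is already above 7 in dormant cells, and Ccl22 stays below 7 on all arrays.

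**Figure D2:**
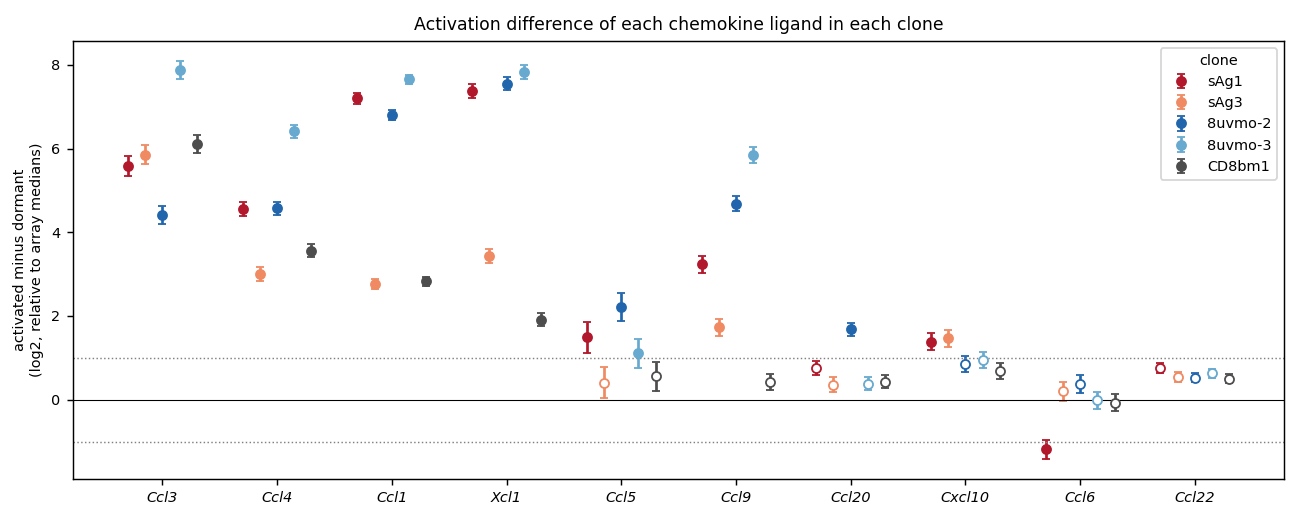
Activated minus dormant log2 difference of each gene in each clone, relative to array medians, with its standard error; filled points were called and dotted lines mark a difference of 1 in either direction. Ccl1 and Xcl1 form a high set (sAg1, 8uvmo-2, 8uvmo-3) and a low set (sAg3, CD8bm1), and Ccl6 has the only called fall, in sAg1.

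Ccl3 and Ccl4, the macrophage inflammatory proteins 1 alpha and 1 beta, rose in every clone. Activated sAg1 had Ccl3 at 14.16, 14.20, 14.18 and 14.17, against 8.11, 7.91 and 8.54 in dormant sAg1. Activated sAg3 had 12.12, 12.10, 12.07 and 12.00, against 5.79, 5.80 and 5.84 in dormant sAg3. No activated array overlapped a dormant one in either clone. Activated 8uvmo-2 had 14.27, 14.27, 14.22 and 14.24, against 8.69, 9.18, 9.20 and 10.69 in dormant 8uvmo-2. Activated 8uvmo-3 had 14.28, 14.24, 14.25 and 14.24, against 5.98, 6.06, 5.76 and 6.13 in dormant 8uvmo-3. Activated CD8bm1 had 12.12, 11.74, 12.57 and 12.54, against 5.80, 5.73, 5.63 and 5.78 in dormant CD8bm1. Dormant arrays of sAg1 and 8uvmo-2 thus stood well above 7, while those of the other 3 clones stayed near background. The rise was 5.58 ± 0.23 (SE) in sAg1, at least 47.9-fold, and 4.41 ± 0.21 in 8uvmo-2, at least 21.3-fold, both lower bounds because the activated level lay near the highest value of the array. It was at least 25.3-fold in sAg3, at least 117-fold in 8uvmo-3 and at least 28.5-fold in CD8bm1, and the adjusted p was at most 1.86e-18 in all 5 clones.

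The activated Ccl3 level fell into a high set of 3 clones and a lower set of 2. Means were 14.18 ± 0.017 in sAg1, 14.25 ± 0.025 in 8uvmo-2 and 14.25 ± 0.019 in 8uvmo-3, against 12.07 ± 0.053 in sAg3 and 12.24 ± 0.39 in CD8bm1 (SD, n = 4 each). The neighbours within each set could not be told apart, with differences of -0.07 for sAg1 minus 8uvmo-2 (adjusted p = 0.894, limma) and -0.17 for sAg3 minus CD8bm1 (adjusted p = 0.638, limma). Ccl3 lay only 0.04 to 0.20 below the highest value of the array on the 12 arrays of the high set. Differences near that ceiling can be compressed, so a like level there does not show a like amount of RNA. In dormant cells the order was 8uvmo-2 at 9.44 ± 0.87 (SD, n = 4), sAg1 at 8.19 ± 0.32 (SD, n = 3) and then the other 3 clones between 5.74 and 5.98. The dormant difference of sAg1 minus 8uvmo-2 was -1.25 ± 0.23 (adjusted p = 4.26e-05, limma), and it was -0.84 and no longer called without dormant 8uvmo-2 replicate 4.

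Ccl4 showed the same high and lower sets of clones. Activated sAg1 had 13.09, 13.17, 13.08 and 13.17, against 8.06, 8.48 and 7.98 in dormant sAg1. Activated sAg3 had 9.74, 10.45, 10.47 and 10.36, against 6.89, 6.73 and 6.93 in dormant sAg3. Replicate 1 of activated sAg3 stood below the other 3 arrays. Activated 8uvmo-2 had 13.49, 13.31, 13.10 and 13.20, against 8.47, 8.30, 7.69 and 8.75 in dormant 8uvmo-2. Activated 8uvmo-3 had 13.45, 13.24, 13.21 and 13.48, against 6.52, 6.62, 6.37 and 6.68 in dormant 8uvmo-3. Activated CD8bm1 had 10.49, 10.17, 10.72 and 10.50, against 6.50, 6.49, 6.67 and 6.35 in dormant CD8bm1. Dormant cells of sAg1 and 8uvmo-2 again lay above 7 and the other dormant cells below it. Ccl4 rose 23.4-fold in sAg1 and 23.8-fold in 8uvmo-2, at least 62.2-fold in 8uvmo-3, at least 7.18-fold in sAg3 and at least 8.35-fold in CD8bm1, with an adjusted p of at most 2e-16. Activated means of 13.13 ± 0.049, 13.28 ± 0.17 and 13.35 ± 0.14 in sAg1, 8uvmo-2 and 8uvmo-3 did not differ detectably, and neither did 10.26 ± 0.35 in sAg3 and 10.47 ± 0.23 in CD8bm1 (SD, n = 4 each). The differences were -0.15 for sAg1 minus 8uvmo-2 (adjusted p = 0.624), -0.22 for sAg1 minus 8uvmo-3 (adjusted p = 0.396) and -0.22 for sAg3 minus CD8bm1 (adjusted p = 0.351), all from limma.

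Ccl1, a ligand of Ccr8, was near background in every dormant sample and high in 3 activated clones. Activated sAg1 had 13.51, 13.52, 13.67 and 13.66, against 6.03, 5.92 and 6.01 in dormant sAg1. Activated 8uvmo-2 had 13.03, 13.12, 12.83 and 13.02, against 5.83, 5.72, 5.87 and 5.79 in dormant 8uvmo-2. Activated 8uvmo-3 had 13.76, 13.61, 13.52 and 13.68, against 5.56, 5.63, 5.57 and 5.65 in dormant 8uvmo-3. All 18 dormant arrays lay between 5.49 and 6.03. Activated sAg3 had 8.90, 8.63, 8.87 and 8.50, against 5.49, 5.52 and 5.65 in dormant sAg3. Activated CD8bm1 had 8.39, 8.58, 9.04 and 9.13, against 5.63, 5.56, 5.50 and 5.51 in dormant CD8bm1. These 2 clones overlapped each other and stayed far below the other 3. The rise was 7.20 ± 0.12 in sAg1, 6.80 ± 0.11 in 8uvmo-2 and 7.66 ± 0.11 in 8uvmo-3, which is at least 72.6-fold, 48.6-fold and 76.5-fold. In sAg3 it was 2.76 ± 0.12, at least 2.49-fold, and in CD8bm1 2.83 ± 0.11, at least 2.60-fold, and the adjusted p was at most 9.23e-19 in each clone. Among activated clones, sAg1 minus 8uvmo-3 was -0.05 (adjusted p = 0.816) and sAg3 minus CD8bm1 was -0.06 (adjusted p = 0.748, both limma). For sAg1 minus 8uvmo-2 it was 0.59 (adjusted p = 3.45e-05, limma), below the minimum difference. Activated Ccl1 lay 0.69 to 0.85 below the array maximum in sAg1 and 0.56 to 0.79 in 8uvmo-3, the same limit as for Ccl3.

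Xcl1, lymphotactin, had the same high set but separated the lower clones. Activated sAg1 had 13.64, 13.70, 13.62 and 13.65, against 5.87, 5.78 and 5.96 in dormant sAg1. Activated sAg3 had 10.27, 9.66, 9.63 and 9.23, against 5.80, 5.98 and 5.78 in dormant sAg3. Activated CD8bm1 had 7.69, 7.62, 8.40 and 8.17, against 5.83, 5.44, 5.69 and 5.67 in dormant CD8bm1. Every activated array of sAg3 stood above every activated array of CD8bm1, and both below the other clones. Activated 8uvmo-2 had 13.99, 14.01, 13.91 and 13.92, against 6.19, 5.76, 6.31 and 5.77 in dormant 8uvmo-2. Activated 8uvmo-3 had 14.06, 13.95, 13.96 and 14.00, against 5.87, 5.86, 5.63 and 5.76 in dormant 8uvmo-3. The rise was at least 75.8-fold in sAg1, 94.4-fold in 8uvmo-2 and 97.5-fold in 8uvmo-3, at least 4.88-fold in sAg3 and at least 1.48-fold in CD8bm1, with an adjusted p of at most 1.83e-12. Activated sAg3 minus activated CD8bm1 was 1.73, or 3.31-fold. Xcl1 lay 0.26 to 0.75 below the array maximum in the high set, so the differences of -0.31 for sAg1 minus 8uvmo-2 (adjusted p = 0.158) and -0.34 for sAg1 minus 8uvmo-3 (adjusted p = 0.107, limma) have the same limit as Ccl3.

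Ccl5, or RANTES, which is stored and released by effector and memory CD8 T cells, lay above 7 in the dormant cells of all 5 clones. Activated sAg1 had 11.41, 11.42, 11.71 and 12.05, against 9.65, 9.86 and 9.73 in dormant sAg1. Activated sAg3 had 8.94, 8.62, 8.66 and 8.62, against 7.81, 8.03 and 7.85 in dormant sAg3. Activated 8uvmo-2 had 12.65, 12.36, 12.19 and 12.24, against 8.39, 10.32, 9.11 and 11.17 in dormant 8uvmo-2. The 4 dormant 8uvmo-2 arrays were the most scattered, with replicates 2 and 4 above replicates 1 and 3. Activated 8uvmo-3 had 13.62, 13.92, 13.70 and 13.77, against 11.89, 12.33, 12.27 and 12.54 in dormant 8uvmo-3. Activated CD8bm1 had 9.07, 9.08, 10.66 and 10.57, against 9.04, 8.82, 9.09 and 8.57 in dormant CD8bm1. The states overlapped in CD8bm1, where activated replicates 1 and 2 lay at the top of the dormant arrays, and in no other clone. Ccl5 rose 4.64-fold in 8uvmo-2 (adjusted p = 1.06e-06), 2.82-fold in sAg1 (adjusted p = 0.000802) and at least 2.16-fold in 8uvmo-3 (adjusted p = 0.00532, limma). Activated 8uvmo-3 lay 0.40 to 0.70 below the array maximum. The 8uvmo-2 difference of 2.22 was 3.19 without dormant 8uvmo-2 replicates 2 and 4 and 1.24 without replicates 1 and 3, called in both cases. The 8uvmo-3 difference of 1.11 fell to 1.00 and lost its call without dormant 8uvmo-3 replicate 1. Differences were 0.40 in sAg3 (adjusted p = 0.36) and 0.56 in CD8bm1 (adjusted p = 0.155, limma), neither called.

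The activated order of Ccl5 was 8uvmo-3 at 13.75 ± 0.13, 8uvmo-2 at 12.36 ± 0.21, sAg1 at 11.65 ± 0.30, CD8bm1 at 9.85 ± 0.89 and sAg3 at 8.71 ± 0.15 (SD, n = 4 each). Neighbours differed by call except sAg1 and 8uvmo-2, whose difference was -0.71 (adjusted p = 0.155, limma). The last step, -1.14 for sAg3 minus CD8bm1 (adjusted p = 0.0104, limma), was -0.86 without activated CD8bm1 replicate 3 and -0.89 without replicate 4, not called in either case. In dormant cells 8uvmo-3 stood alone at 12.26 ± 0.27 (SD, n = 4). Dormant sAg1 and dormant 8uvmo-2 both averaged 9.75, and dormant sAg3 was lowest at 7.90 ± 0.12 (SD, n = 3).

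Ccl9, a Ccr1 ligand best known from myeloid cells, was induced in 4 clones. Activated sAg1 had 9.78, 9.71, 9.98 and 10.59, against 5.83, 6.64 and 6.66 in dormant sAg1. Activated sAg3 had 8.17, 7.62, 7.78 and 7.61, against 5.66, 5.77 and 5.53 in dormant sAg3. Activated 8uvmo-2 had 10.65, 11.12, 10.62 and 10.76, against 5.72, 5.69, 5.81 and 5.60 in dormant 8uvmo-2. The 3 clones stood apart from each other after activation and all lay below 7 when dormant. Activated 8uvmo-3 had 11.54, 12.10, 11.47 and 12.20, against 5.20, 5.75, 5.55 and 5.87 in dormant 8uvmo-3. Activated CD8bm1 had 6.41, 6.65, 6.71 and 6.44, against 5.85, 5.44, 5.74 and 5.85 in dormant CD8bm1. CD8bm1 stayed near background in both states. Ccl9 rose at least 6.09-fold in sAg1, at least 1.31-fold in sAg3, at least 10.5-fold in 8uvmo-2 and at least 21.7-fold in 8uvmo-3, with an adjusted p of at most 9.05e-09. The difference of 0.43 in CD8bm1 (adjusted p = 0.0473, limma) was below the minimum. The activated means of 11.83 ± 0.38 in 8uvmo-3, 10.79 ± 0.23 in 8uvmo-2, 10.02 ± 0.40 in sAg1, 7.80 ± 0.26 in sAg3 and 6.55 ± 0.15 in CD8bm1 (SD, n = 4 each) were called apart at every step except sAg1 minus 8uvmo-2, at -0.77 (adjusted p = 0.00158, limma). The difference of 8uvmo-2 minus 8uvmo-3, -1.04, lost its call when any of 4 single arrays was left out.

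Ccl6, the other myeloid chemokine of the set, was the only gene with a called fall. Activated sAg1 had 7.07, 7.62, 6.34 and 6.45, against 7.08, 7.70 and 8.17 in dormant sAg1, and the states overlapped. Activated sAg3 had 7.18, 6.22, 6.05 and 6.01, against 5.59, 5.71 and 5.95 in dormant sAg3. All arrays of the other 3 clones lay below 7, between 6.14 and 6.78 activated and between 5.74 and 6.12 dormant. The sAg1 difference was -1.19 ± 0.23 (adjusted p = 2.8e-05, limma). It was -0.78 on deposited values and -0.92 without dormant sAg1 replicate 3, not called in either case. The differences in the other clones lay between -0.07 and 0.38.

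Macrophage markers were read beside Ccl6, and Lyz2, the macrophage lysozyme, moved with it. The 6 arrays with Ccl6 at 7 or above were the 3 of dormant sAg1, replicates 1 and 2 of activated sAg1 and replicate 1 of activated sAg3. On those arrays Lyz2 was at 6.36 to 9.94, and the mean of 19 macrophage markers was 6.10 to 6.84. On the other 32 arrays Ccl6 was at 5.59 to 6.78, Lyz2 at 4.80 to 6.18 and the marker mean at 5.45 to 6.35. Dormant sAg1 had Lyz2 at 8.75, 9.08 and 9.94, activated sAg1 had 6.36, 7.11, 5.48 and 5.68, and activated sAg3 had 8.40, 5.36, 5.66 and 5.96. The Lyz2 level was thus high in dormant sAg1 and in a single activated sAg3 array. Csf1r and C1qa, which define macrophages, lay below 7 on all 38 arrays, and Tyrobp passed 7 only in dormant sAg1 replicate 3 (7.10) and activated sAg3 replicate 1 (7.08). Cd68 lay between 7.69 and 10.57 on all arrays. Within sAg1, Ctss moved with Ccl6, at 8.17, 8.07 and 9.11 dormant and 7.36, 7.74, 6.29 and 6.53 activated. Itgam was at 6.07, 6.34 and 6.98 in dormant sAg1. In activated sAg3 it was at 6.83 in replicate 1 and 5.76 to 5.78 on the other arrays. Across clones, Itgam and Ctss did not peak where Ccl6 did. Itgam was highest in dormant 8uvmo-2, at 8.99 to 11.00, and Ctss in sAg3, at 10.72 to 10.86 activated and 10.83 to 11.01 dormant; both are named because of these values. Of the 19 markers, 4 were called lower with activation in sAg1, where 8.06% of all probe sets were. Activated sAg3 replicate 1 also had the highest Ccl6 and the highest Ccl9 (8.17) of its group and 6 of the 19 markers at 7 or above. Ccl6 and the marker mean had r = 0.70 over 18 dormant arrays and 0.36 over 20 activated arrays, a description of arrays that share clones. The part of these markers in the Ccl6 values was not tested.

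**Figure D3:**
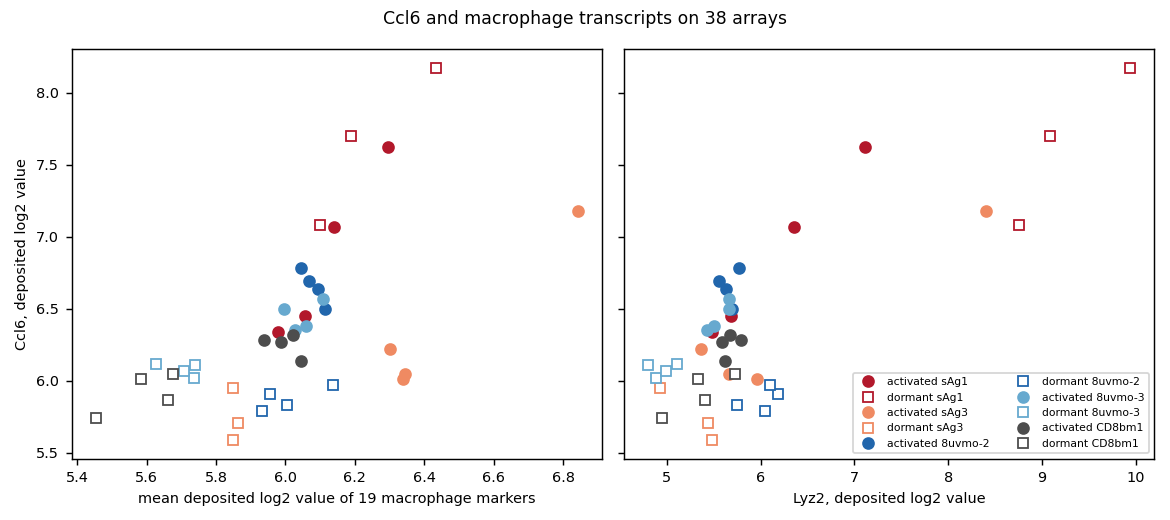
Ccl6 log2 level of each of the 38 arrays against the mean of 19 macrophage markers (left) and against Lyz2 (right), coloured by clone, with filled circles for activated and open squares for dormant arrays. The 6 arrays with Ccl6 at 7 or above are the 6 with Lyz2 above 6.18.

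Ccl20, Cxcl10 and Ccl22 stayed low in most groups, and only Ccl22 lay below 7 on all arrays. Ccl20, the ligand of Ccr6, was at 8.33, 8.08, 7.04 and 7.57 in activated 8uvmo-2, against 5.56 to 5.75 in dormant 8uvmo-2, a rise of 1.68 ± 0.16 (adjusted p = 4.74e-11, limma) that is at least 1.28-fold. Activated sAg1 had Ccl20 at 6.92, 7.01, 6.98 and 6.88, and the other activated clones did not pass 6.64. Dormant arrays lay between 5.34 and 5.89. In 8uvmo-2, replicate 3 had the lowest Ccl20 of the activated arrays and also stood apart in 12 dendritic cell markers, with a mean of 7.72 and 8 of 12 at 7 or above, against means of 6.71 to 6.88 on the other 3 arrays. In that group the dendritic cell marker mean was highest on the array where Ccl20 was lowest.

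Cxcl10, a Cxcr3 ligand known as an interferon gamma target, reached 6.98, 7.35, 7.17 and 6.73 in activated sAg1 and 7.31, 8.07, 6.73 and 6.27 in activated sAg3, and 6.26 to 6.66 on the other activated arrays. Dormant arrays of all clones lay between 5.09 and 5.41. The differences of 1.38 ± 0.20 in sAg1 (adjusted p = 5.02e-07) and 1.47 ± 0.20 in sAg3 (adjusted p = 2.3e-07, limma) were called, but with dormant levels near background and activated means of about 7 no fold is given. Among 13 interferon gamma induced genes, 1 was called higher in sAg1 and none in the other clones, while 4 in sAg1, 3 in sAg3, 6 in 8uvmo-2 and 3 in 8uvmo-3, and 2 in CD8bm1 were called lower. The shares of all probe sets called lower were 8.06% in sAg1, 3.75% in sAg3, 9.2% in 8uvmo-2 and 8.12% in 8uvmo-3, and 6.94% in CD8bm1. Those called higher were 2.27%, 0.645%, 2.5%, 1.96% and 0.948% in the same order. At such shares a count of none among 13 genes is near what all probe sets show. On deposited values the interferon list had 2 genes called higher in sAg1 and 2 in sAg3, and none in the other clones. The shares of all probe sets on deposited values are not given here. Ccl22, a Ccr4 ligand typical of dendritic cells and macrophages, lay between 5.69 and 6.44 on activated and between 4.73 and 5.24 on dormant arrays. Its differences of 0.50 to 0.76 had adjusted p-values of 8.15e-07 to 0.000124 (limma), but every value lay below 7. Probe sets of such low mean level kept a positive state difference after centring, 0.15 to 0.20 for those with a mean of 5 to 6, so the low members' differences include a shift that other dim probe sets share. Those with a mean above 9 had -0.48 to -0.41 after centring and -0.07 to -0.01 on deposited values. Centring thus lowers the rises of bright members such as Ccl5, and the shares called lower rest on the same centred values.

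Between the IL13+ and IL13-negative clones, more of these genes were called after activation than in dormant cells. In dormant cells every member except Ccl5 had a clone mean below 7 on both sides, so few could have shown a difference there. A phenotype difference was called when, in addition, the clone means of both sides lay apart. In dormant cells 1 of the 10 genes was called lower in the IL13+ clones, against 2.33% of all probe sets. This was Ccl5, at a mean of 8.82 in IL13+ clones and 11.00 in IL13-negative clones, a difference of -2.18 ± 0.27 (adjusted p = 1.98e-08, limma). The arrays of the phenotypes overlapped, and sAg1 and 8uvmo-2 both averaged 9.75, so the separation of clone means that the call needs was lost on centred values and without dormant 8uvmo-2 replicates 2 and 4. In activated cells 5 genes were called lower in the IL13+ clones, against 1.08% of all probe sets. Ccl5 averaged 10.18 in IL13+ and 13.06 in IL13-negative clones (-2.88 ± 0.25, at least 7.35-fold lower, with 8uvmo-3 near the array maximum). Ccl9 averaged 8.91 in IL13+ and 11.31 in IL13-negative clones (-2.40 ± 0.13, 5.29-fold lower). Xcl1 averaged 11.68 in IL13+ and 13.98 in IL13-negative clones (-2.30 ± 0.11, 4.92-fold lower). Activated sAg1 and both IL13-negative clones lay near the array maximum for Xcl1, so this fold can be compressed. The remaining called genes were Ccl4, at -1.62 ± 0.11 with arrays that overlapped, and Ccl3, at -1.13 ± 0.15 near the array maximum. Ccl1 had a difference of -2.16 ± 0.07 (adjusted p = 1.09e-22, limma) but was not called, because activated sAg1 lay between the IL13-negative clones. The median over the 10 genes was -1.37, and that over all probe sets 0.02.

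The separate clones were then set against each other. Between activated sAg1 and activated 8uvmo-2, 0 of the 10 genes were called, against 2.93% of all probe sets. Of the 10, 6 had an unadjusted and 4 an adjusted p under 0.05 (limma), all with differences below 1. Between activated sAg1 and activated 8uvmo-3, 2 were called lower, Ccl5 at -2.11 and Ccl9 at -1.81 (background 1.64%). Activated sAg3 had 7 genes called lower than activated 8uvmo-2 (background 2.89%) and 6 called lower than activated 8uvmo-3 (background 3.33%). Those against 8uvmo-2 ran from -1.33 for Ccl20 and -2.18 for Ccl3 to -4.26 for Xcl1 and -4.28 for Ccl1. Within the IL13+ phenotype, activated sAg1 had 6 genes called higher than activated sAg3 (background 2.6%). These were Ccl1 at least 29.1-fold, Xcl1 at least 15.5-fold, Ccl5 7.66-fold, Ccl4 7.32-fold, Ccl9 4.66-fold and Ccl3 at least 4.30-fold. The bounds are given because activated sAg1 lay near the array maximum, within 0.69 to 0.85 for Ccl1 and 0.62 to 0.75 for Xcl1. The gap between sAg1 and sAg3 was larger than the difference between phenotypes for each of the 6 genes except Ccl9, where it was 2.22. With the means of the 5 clones as replicates, 0 of the 10 genes were called in any phenotype comparison, and at most 2 had an unadjusted p under 0.05 (limma).

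**Figure D4:**
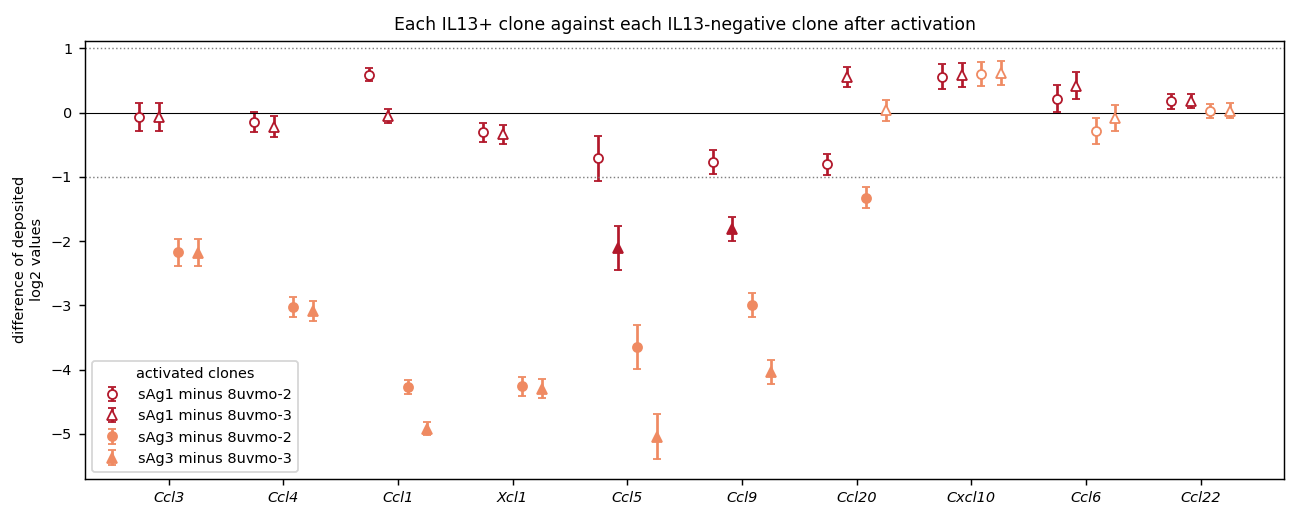
Difference in deposited log2 level between each activated IL13+ clone and each activated IL13-negative clone, with its standard error; filled symbols were called and dotted lines mark a difference of 1 in either direction. For Ccl1, Ccl3, Ccl4 and Xcl1 the sAg1 points lie near 0 and the sAg3 points between -2.18 and -4.92.

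Against CD8bm1, the IL13+ clones had 2 genes called higher when dormant (background 3.14%) and 2 when activated (background 2.02%). The dormant pair was Ccl3 (1.26 ± 0.20) and Ccl4 (1.01 ± 0.14), where only sAg1 lay above 7, so no fold is given. After activation the IL13+ clones exceeded CD8bm1 in Ccl9 by 2.35 ± 0.16, at least 3.75-fold, and in Xcl1 by 3.71 ± 0.13, at least 13.0-fold. Ccl1 had a difference of 2.37 in activated cells but sAg3 and CD8bm1 lay together, and it was not called. Activated sAg3 and activated CD8bm1 differed in 3 of the 10 genes (background 4.79% in either direction): Xcl1 and Ccl9 were higher in sAg3, by 1.73 and 1.24, and Ccl5 was lower.

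The size of the activation response was also compared directly, as the difference between activation differences. The contrasts share the IL13+ arrays, and where a dormant level lies below 7 the size of such a difference depends on values near background. Between IL13+ and IL13-negative clones, 3 of the 10 genes had a smaller response in IL13+ clones (background 0.589%). These were Ccl9 (-2.79 ± 0.20), Xcl1 (-2.29 ± 0.16) and Ccl4 (-1.72 ± 0.16). The Ccl4 call was lost without dormant 8uvmo-2 replicates 1 and 3 (-1.62), and the Xcl1 call without replicates 2 and 4 (-2.15), because the responses of the clones then no longer lay apart. Against CD8bm1, 2 genes responded more in IL13+ clones (background 2.19%), Xcl1 (3.50 ± 0.20) and Ccl9 (2.06 ± 0.24). Within the IL13+ phenotype, sAg1 and sAg3 differed in 5 genes (background 5.15% in either direction), with a larger response of sAg1 for Ccl1 (4.44 ± 0.17), Xcl1 (3.94 ± 0.24), Ccl4 (1.55 ± 0.23) and Ccl9 (1.50 ± 0.29) and a lower one for Ccl6 (-1.39 ± 0.32). The IL13-negative clones differed in 4 genes (background 2.43% in either direction). The response of 8uvmo-2 minus that of 8uvmo-3 was -1.17 ± 0.27 for Ccl9 and -1.84 ± 0.22 for Ccl4. For Ccl3 it was -3.47 ± 0.30, with both activated levels near the array maximum and dormant 8uvmo-3 below 7, so this value is no measure of a smaller rise. For Ccl3 and Ccl4 the dormant level of 8uvmo-2 was at least 5.43-fold and at least 2.47-fold higher, and the activated levels did not differ detectably, at 0.00 and -0.07. Ccl20 responded more in 8uvmo-2 (1.30 ± 0.23).

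Receptors of these ligands were read from 7 measured genes. Ccr8, the receptor of Ccl1, marked the IL13+ clones in both states. It averaged 9.28 in activated and 8.87 in dormant sAg1 and 8.15 in activated and 7.10 in dormant sAg3, against 4.83 to 5.67 in the groups of the other clones. It was called higher in the IL13+ clones than in the IL13-negative clones and than in CD8bm1, at least 3.29-fold in activated and at least 1.98-fold in dormant cells, with an adjusted p of at most 4.01e-22 (limma). Cxcr3, the receptor of Cxcl10, fell with activation in 4 clones, with differences of -2.10 in sAg1, -2.91 in 8uvmo-2 and -2.66 in 8uvmo-3, and of -2.18 in CD8bm1. In sAg3 it was 7.21 when activated and 7.74 when dormant, and not called. Ccr4, a receptor of Ccl22, rose in 8uvmo-2 (2.43 ± 0.27, at least 3.67-fold) and was called in no other clone, and Ccr1, a receptor of Ccl3, Ccl5, Ccl6 and Ccl9, rose in 8uvmo-3 (1.57 ± 0.15, at least 2.73-fold). Xcr1, Ccr6 and Ccr3 had group means below 7 in all 10 groups.

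Genes induced through the T cell receptor moved with the chemokines. Of 19 measured, 14 were called higher in sAg1, 4 in sAg3, 13 in 8uvmo-2 and 14 in 8uvmo-3, and 7 in CD8bm1, and none lower. The shares of all probe sets called higher were 2.27%, 0.645%, 2.5%, 1.96% and 0.948% in the same order, all on centred values. On deposited values 15, 7, 15, 16 and 9 of the 19 were called higher, and the shares of all probe sets are not given here. Their mean level per array was 11.21 to 11.35 in activated sAg1, 11.33 to 11.57 in activated 8uvmo-2 and 11.27 to 11.52 in activated 8uvmo-3, against 10.13 to 10.20 in activated sAg3 and 10.09 to 10.15 in activated CD8bm1. Dormant arrays had 8.65 to 8.69 in sAg1, 9.37 to 9.47 in sAg3, 8.95 to 9.11 in 8uvmo-2, 8.61 to 8.65 in 8uvmo-3 and 8.51 to 8.68 in CD8bm1. The activated arrays fell into the same 3 higher and 2 lower clones as Ccl1, Ccl3, Ccl4 and Xcl1, and dormant sAg3 had the highest dormant mean. The response of sAg1 exceeded that of sAg3 in 15 of the 19, against 2.66% of all probe sets. The largest were the receptor Tnfrsf9 (4.84) and the transcription factors Nr4a3 (4.07), Egr2 (3.57) and Nr4a1 (3.49), all below 7 on average in dormant sAg1. In dormant sAg3, Egr2 and Nr4a1 were also below 7 on average, but Tnfrsf9 and Nr4a3 were not. Nr4a3 was at 9.97, 9.90 and 10.00 in dormant sAg3. Its activated arrays were at 10.89 to 11.16 in sAg3 and 11.71 to 11.90 in sAg1. In sAg1 the largest called rises were Nr4a1 (at least 15.5-fold), Egr2 (at least 24.5-fold), Nr4a3 (at least 20.8-fold) and Tnfrsf9 (at least 21.4-fold). In sAg3 they were Nr4a1 (at least 1.68-fold), Egr2 (at least 2.50-fold), Egr1 (a log2 difference of 1.23) and Ifng (1.21). The part of this wider response in the chemokine differences was not tested.

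Likeness was measured as Pearson's r of the 10 group means, over 968 probe sets whose group means varied by an SD of at least 1. The 10 points share clones and states, and r is a description. The transcription factor Egr2 was most like Ccl1 (r = 0.993), followed by Xcl1 (0.991) and the histone demethylase Kdm6b (0.980). Xcl1 was most like Ccl1 (0.991), Egr2 (0.987) and the surface receptor Slamf1 (0.981). Egr2 was at 11.88, 11.78, 12.06 and 12.37 in activated sAg1 and at 8.79, 8.68, 8.85 and 8.62 in activated sAg3. It was at 11.30, 11.47, 11.15 and 11.49 in activated 8uvmo-2, 12.54, 12.15, 12.16 and 12.28 in activated 8uvmo-3 and 8.36, 8.31, 8.66 and 8.63 in activated CD8bm1. Dormant arrays had Egr2 at 6.14 to 7.19. Ccl4 was most like Ccl3 (0.979), Ccl1 (0.976) and Pou2f2 (0.969), and Ccl9 most like Eea1 (0.979), Xcl1 (0.979) and Slamf1 (0.971). Ccl3 was most like Ccl4, Kdm6b (0.935) and Pou2f2 (0.933). Ccl5 went with a different set, Dusp2 (0.985), Dab2ip (0.950) and Ptger2 (0.943), and Ccl6 with Id3 (0.946), Echdc2 (0.923) and Ust (0.882). The genes most like Ccl20 were Serpina9 (0.955), Iqcf3 (0.952) and Il2 (0.945). Those most like Ccl22 were Acaa1b (0.987), Dot1l (0.976) and Usp17ld (0.974), and those most like Cxcl10 were Acaa1b (0.966), Usp17ld (0.964) and Trib1 (0.952), where both members lay near background in most groups.

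**Figure D5:**
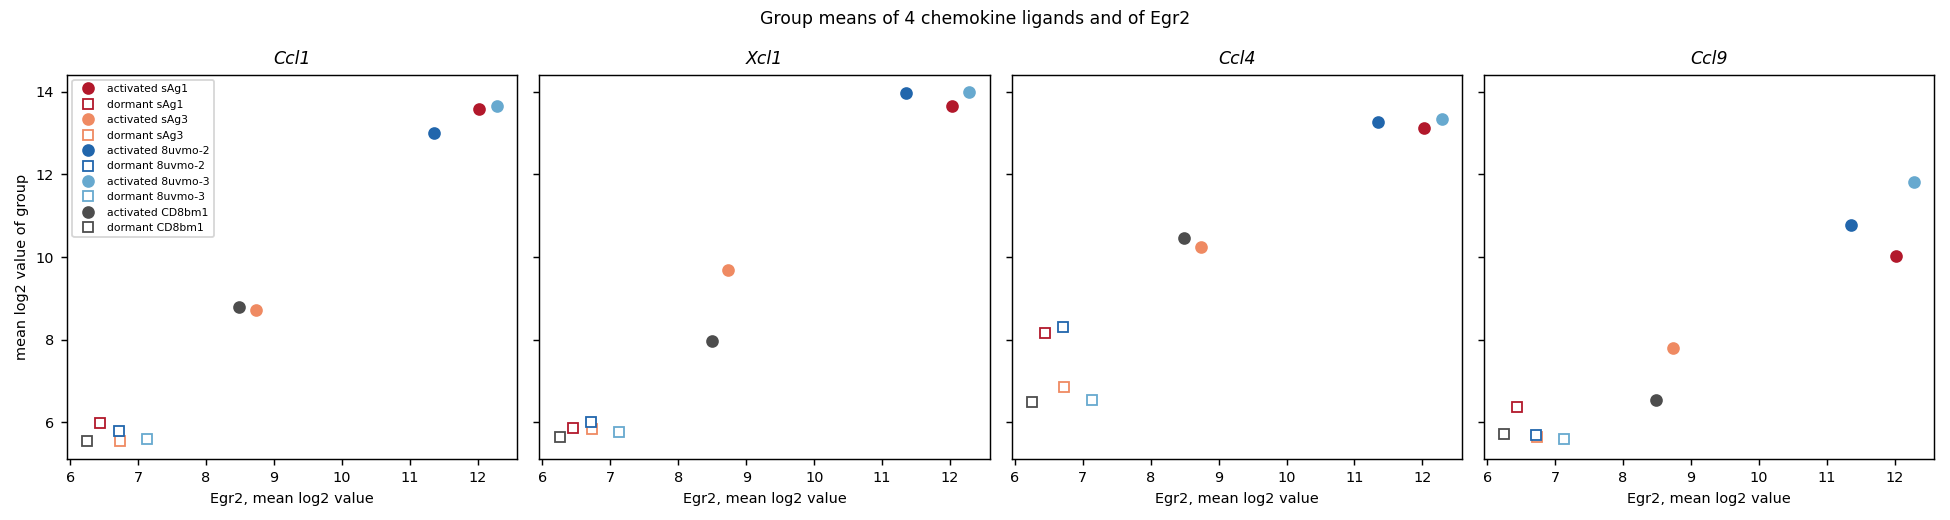
Group mean log2 level of Ccl1, Xcl1, Ccl4 and Ccl9 against that of Egr2, with 1 point for each of the 10 groups, filled for activated and open for dormant, coloured by clone. Activated sAg3 and CD8bm1 lie between the dormant groups and the other 3 activated clones on both axes for Ccl1, Xcl1 and Ccl4.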

How the data were processed

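Gene expression was measured on 38 Affymetrix arrays from 100 ng of total RNA each, labelled with the WT Plus kit per the labels' protocols. The deposited table holds log2 probe set values; per the submitters' processing notes, Partek and RMA, a robust average over probes and arrays, were used, with versions and settings not given in the sources used here. The number of arrays limits the precision.

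Of 35556 rows, 23410 name a gene in the platform annotation, 21789 of them 1 gene and 1621 several. All 38 columns were mapped by their labels. Tests came from limma 3.58.1 under R 4.3.3, fitted to every probe set with 1 mean for each group over all arrays, moderated variances with a mean trend, Benjamini-Hochberg adjustment and two-sided tests. Activation differences and their contrasts used values centred on each array's median; comparisons within a state used deposited values. Calls need an adjusted p under 0.05 and an absolute difference of at least 1, and for phenotypes clone means or responses that lie apart. Errors are SE for differences and SD for means. Lower bounds of folds take each array's value or 7, whichever is higher.

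Scripts were tested on simulated data. Alternatives varied scaling, threshold, filter, variance model, arrays and replication. The members and lists were chosen with earlier results of these data known. Named were all members; for each list the counts and at most 4 called genes with the largest differences; the receptors; Csf1r, Cd68, Lyz2, Tyrobp and C1qa; and the 3 genes most like each member. Cd3e, Cd8a, Cd8b1, Cd4 and Il13 check the labels. The p-values reflect only how far arrays of these clones spread.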

Additional observations from a re-analysis of the deposited data

Results flagged for a closer look

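In activated sAg3, the lowest of the 4 arrays stood apart for Ccl4, at 9.74 with its nearest neighbour at 10.36. The highest stood apart for Ccl5, at 8.94 with its nearest neighbour at 8.66. Both were replicate 1, and these were 2 of 80 groups of 4 arrays examined over the 10 genes. Chance gives about 1 such array in 20 groups.

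The response to activation differed between groups in 14 of 40 direct comparisons, which reuse arrays. The shares of all probe sets called in either direction were 1.91% for IL13+ minus IL13-negative clones and 3.29% for IL13+ clones minus CD8bm1. They were 5.15% for sAg1 minus sAg3 and 2.43% for 8uvmo-2 minus 8uvmo-3. Responses were smaller in the IL13+ than in the IL13-negative clones for Ccl4 (-1.72, adjusted p = 3.66e-10), Ccl9 (-2.79, adjusted p = 6.08e-13) and Xcl1 (-2.29, adjusted p = 7.89e-13, limma). They were larger in the IL13+ clones than in CD8bm1 for Ccl9 (2.06, adjusted p = 4.51e-08) and Xcl1 (3.50, adjusted p = 5.13e-15, limma). These p-values reflect the spread of arrays and not of clones. With clone means as replicates, 0 genes were called in either comparison. The responses of sAg1 and 8uvmo-2 lay close, at 4.547 and 4.575 for Ccl4 and at 7.38 and 7.55 for Xcl1. Those of sAg3 and 8uvmo-3 lay far apart, at 2.99 and 6.41 for Ccl4 and at 3.43 and 7.83 for Xcl1.

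The 2 IL13+ clones differed from each other. The response of sAg1 minus that of sAg3 was 4.44 for Ccl1 (adjusted p = 1.08e-19), 3.94 for Xcl1 (adjusted p = 1.47e-14), 1.55 for Ccl4 (adjusted p = 4.01e-06), 1.50 for Ccl9 (adjusted p = 0.000141) and -1.39 for Ccl6 (adjusted p = 0.00115, limma). The response of 8uvmo-2 minus that of 8uvmo-3 was -3.47 for Ccl3 (adjusted p = 1.46e-10). Activated Ccl3 lay near the array maximum in both clones and dormant 8uvmo-3 below 7, so that value is no measure of a smaller rise. The same difference was -1.84 for Ccl4 (adjusted p = 9.15e-08), -1.17 for Ccl9 (adjusted p = 0.00191) and 1.30 for Ccl20 (adjusted p = 8.22e-05, limma).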

How the results depend on the processing

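No result on the 10 genes changed direction among those called. Of 3407 recomputed results, 3320 kept their side of the threshold, with 49 calls lost and 38 gained. Direction was compared for called results only. Some results that were not called changed sign, such as Ccl6 activation in 8uvmo-3, at -0.13 to 0.37 over the alternatives. With limma's treat test against a difference of 1, the genes called numbered 5 in sAg1 activation (8 in the report), 0 for dormant IL13+ clones against CD8bm1 (2), 2 for the response of sAg1 minus sAg3 (5) and 2 for that of 8uvmo-2 minus 8uvmo-3 (4). With no minimum difference, 8 genes rose in CD8bm1 (4). The single dormant call between IL13+ and IL13-negative clones, Ccl5, became 0 on centred values, with quantile normalization and without dormant 8uvmo-2 replicates 2 and 4. Quantile normalization left 1 call of 2 for dormant IL13+ clones against CD8bm1, and dropping the condition on clones gave 4 calls in place of 2 for the activated comparison. With clone means as replicates, 0 genes were called in all 6 phenotype comparisons (1, 5, 2, 2, 3 and 2 in the report). On deposited values, activation calls were added for Ccl20 in sAg1 (1.16), Ccl22 in sAg1 (1.16) and 8uvmo-3 (1.02) and Cxcl10 in 8uvmo-2 (1.25), 8uvmo-3 (1.33) and CD8bm1 (1.09), all near background when dormant. Calls over all probe sets numbered 409 to 2739 in the 13 comparisons, 3081 to 15973 with no minimum difference, 94 to 1429 with treat and 0 to 56 with clone means. A filter on dim probe sets removed Ccl22 alone. The cause of these changes was not tested.

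Leaving out each array in turn gave 7 to 8 called genes in sAg1 activation, 6 to 6 in sAg3, 7 to 7 in 8uvmo-2, 5 to 6 in 8uvmo-3 and 4 to 4 in CD8bm1. It gave 0 to 1 for IL13+ against IL13-negative dormant clones and 5 to 5 for activated ones. Against CD8bm1 it gave 1 to 2 dormant and 2 to 3 activated. For the differences in response it gave 2 to 3 for IL13+ minus IL13-negative clones, 2 to 3 for IL13+ clones minus CD8bm1, 5 to 5 for sAg1 minus sAg3 and 4 to 5 for 8uvmo-2 minus 8uvmo-3. The dormant Ccl5 call was lost without dormant sAg1 replicate 1 or 3 or dormant 8uvmo-2 replicate 2 or 4, and the dormant Ccl4 call against CD8bm1 without any of 4 arrays (0.93 to 1.00).

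With the replicate number as a block, 130 of 130 results kept their call, and 8, 6, 7, 6 and 4 genes were called for activation in sAg1, sAg3, 8uvmo-2, 8uvmo-3 and CD8bm1. The numbers were not taken as a pairing: over 18 pairs of activated and dormant arrays, the correlation of deviations from group means was -0.236 to 0.268, and 7 exceeded 0.1, among them all 4 of 8uvmo-2.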

Other observations

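Of 28 other chemokine ligands, 26 were measured. The count called higher was 1 in sAg1, 0 in sAg3, 3 in 8uvmo-2 and 2 in 8uvmo-3, and 1 in CD8bm1, and none was called lower. The shares of all probe sets called higher were 2.27%, 0.645%, 2.5%, 1.96% and 0.948% in the same order. These shares and counts are for centred values. On deposited values the counts were 6, 5, 7, 5 and 4, and the shares of all probe sets are not given here. Deposited values of probe sets with a mean of 5 to 6 were higher in activated arrays, by a median of 0.555 to 0.59 per clone. Ccl12, a mouse monocyte chemoattractant, was the gene called in CD8bm1. It had 10.44, 9.24, 10.43 and 10.53 in activated CD8bm1, against 6.91, 6.40, 6.29 and 6.65 in dormant CD8bm1, at least 6.74-fold higher. It did not exceed 7.05 on the activated arrays of any other clone, and in activated cells the IL13+ clones lay at least 8.94-fold lower than CD8bm1. Ccl12 thus had its high level in a clone where Ccl1, Ccl9 and Xcl1 were at or near the bottom of the activated order.

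Cxcl2 and Cxcl3, which attract neutrophils, were called higher in 1 and 2 clones, with activated levels close to 7, so no fold is given. Cxcl2 had 7.66, 7.77, 6.72 and 7.27 in activated 8uvmo-2, against 4.73 to 5.30 in dormant 8uvmo-2, a log2 difference of 1.91. The array with the lowest Cxcl2 was replicate 3, which also had the lowest Ccl20 of its group. Cxcl3 had 7.26, 7.56, 7.42 and 7.30 in activated sAg1 (1.67), and it was also called in 8uvmo-3 (1.22), at 6.40 to 7.20 on the activated arrays.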
